A study of Mus musculus with 18 samples.

Results

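Efferocytosis is the engulfment of dying cells by phagocytes, and the 10 genes described here encode receptors, bridging proteins and lipid transporters of that process: Mertk, Axl, Gas6, Pros1, Mfge8, Stab1, Msr1, Scarb1, Abca1 and Abcg1. They are a list of named genes, set by no threshold on their values, among the 30583 genes of the deposited count table, and all 10 passed the filter on low counts that left 16311 genes for testing. The samples were hearts of 12-week-old male C57BL/6JR mice, 3 in each of 6 groups. In 5 groups the left anterior descending coronary artery had been tied to cause a myocardial infarction, and the animals were sampled 10 min later or after 1, 6, 24 or 72 h. The sham group, given as 0 h, had the suture passed and left untied. All 6 groups shared the surgery and pentobarbital anaesthesia, no allele or agent differed between them, and each library came from 1 mouse.

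The labels call the material both cardiomyocytes and myocardial tissue of the infarcted left ventricle. Macrophage, endothelial and fibroblast markers were present in every group, so the libraries are described as whole tissue. In such bulk samples a change in the number of cells of a type cannot be told apart from a change in RNA per cell. Each library held between 18199172 and 25062351 counts. One library stood apart: replicate 1 at 6 h held 49.3 CPM (counts per 1000000 of the scaled library total) of Myl7, 59.1 of Myl4 and 42.6 of Sln, transcripts of atrial muscle that reached at most 2.62 CPM in any other library. Changes at 6 h that are named are therefore also given without that library.

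When a cell dies, phosphatidylserine moves to its outer surface, where Gas6 and protein S (Pros1) tether it to the receptor tyrosine kinases Mertk and Axl, and Mfge8 tethers it to integrins. Stabilin 1 (Stab1) binds phosphatidylserine directly, and the scavenger receptors Msr1 and Scarb1 take up modified lipoproteins and exchange lipid with high-density lipoprotein. The engulfed cell brings a load of cholesterol, which activates liver X receptors (LXR) and is exported by Abca1 and Abcg1. In the infarcted heart macrophages are the best known efferocytes, while Gas6, Axl and Mfge8 are also made by stromal and vascular cells.

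The sequences before 4 of the start sites are shown because these genes had contrasting time courses, seen before they were picked: Abca1 was called higher than sham at 6 and 72 h and not at 24 h, Stab1 rose late, and the ligands Gas6 and Pros1 went in opposite directions at 6 and 24 h. Each is the 250 bases before the RefSeq start site on GRCm38.p6, written 5′ to 3′ on the gene's strand, with capitals on the named motifs found by a search of both strands. For Abca1 (chr4:53159896-53160145, minus strand) capitals mark a direct repeat of the LXR type, which reads on the opposite strand, an E-box and a TATA box. For Stab1 (chr14:31168642-31168891, minus strand) they mark a CCAAT box, on the opposite strand, and a PU.1 core, and for Gas6 (chr8:13494536-13494785, minus strand) and Pros1 (chr16:62854057-62854306, plus strand) GC boxes.
Abca1: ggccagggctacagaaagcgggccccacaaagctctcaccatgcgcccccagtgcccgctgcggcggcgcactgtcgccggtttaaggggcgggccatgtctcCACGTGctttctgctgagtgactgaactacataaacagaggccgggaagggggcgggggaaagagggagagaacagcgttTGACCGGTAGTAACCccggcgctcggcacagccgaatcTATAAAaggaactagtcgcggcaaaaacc
Stab1: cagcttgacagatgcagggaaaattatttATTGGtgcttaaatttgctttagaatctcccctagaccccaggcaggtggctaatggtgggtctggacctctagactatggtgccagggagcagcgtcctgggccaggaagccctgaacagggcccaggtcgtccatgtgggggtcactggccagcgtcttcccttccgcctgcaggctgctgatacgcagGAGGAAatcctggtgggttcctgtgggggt
Gas6: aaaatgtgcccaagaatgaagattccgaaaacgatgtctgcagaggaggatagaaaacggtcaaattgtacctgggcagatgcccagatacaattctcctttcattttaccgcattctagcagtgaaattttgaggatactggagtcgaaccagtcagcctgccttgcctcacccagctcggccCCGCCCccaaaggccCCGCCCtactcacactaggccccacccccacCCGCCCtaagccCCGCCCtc
Pros1: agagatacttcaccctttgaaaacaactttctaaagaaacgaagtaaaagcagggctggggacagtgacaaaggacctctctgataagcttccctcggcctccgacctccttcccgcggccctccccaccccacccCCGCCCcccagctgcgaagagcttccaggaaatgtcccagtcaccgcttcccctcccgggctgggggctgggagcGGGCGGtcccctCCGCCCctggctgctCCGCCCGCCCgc

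The RefSeq promoter table held 7 of the 10 genes, Abcg1, Msr1 and Scarb1 not among them. The direct repeat, searched as 2 copies of GGTNA with 5 bases between them, was present in Abca1, beginning 67 bases before the start, and in 0.621% of 32851 promoters of the same length. Abca1 also held the E-box CACGTG, found in 6.02% of promoters, 147 bases before the start, and TATAAA, found in 12.4%, 29 bases before it. None of the other 6 promoters held any of these 3 motifs. The GC box GGGCGG stood in 6 of the 7 promoters and in 32.7% of all. Pros1 had 5 matches, 2 of which overlapped, Gas6 had 4, Abca1 had 2 that are not in capitals above, and Stab1 had 0. The PU.1 core GAGGAA, named for a myeloid factor, was found in Stab1, Axl and Mfge8 and in 23.3% of all promoters, CCAAT in Stab1 and in 33.8% of all, and the AP-1 letters TGANTCA in 0 of the 7 and in 6.75% of all. These are matches of letters in a fixed window, not measured binding sites.

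**Figure D1:**
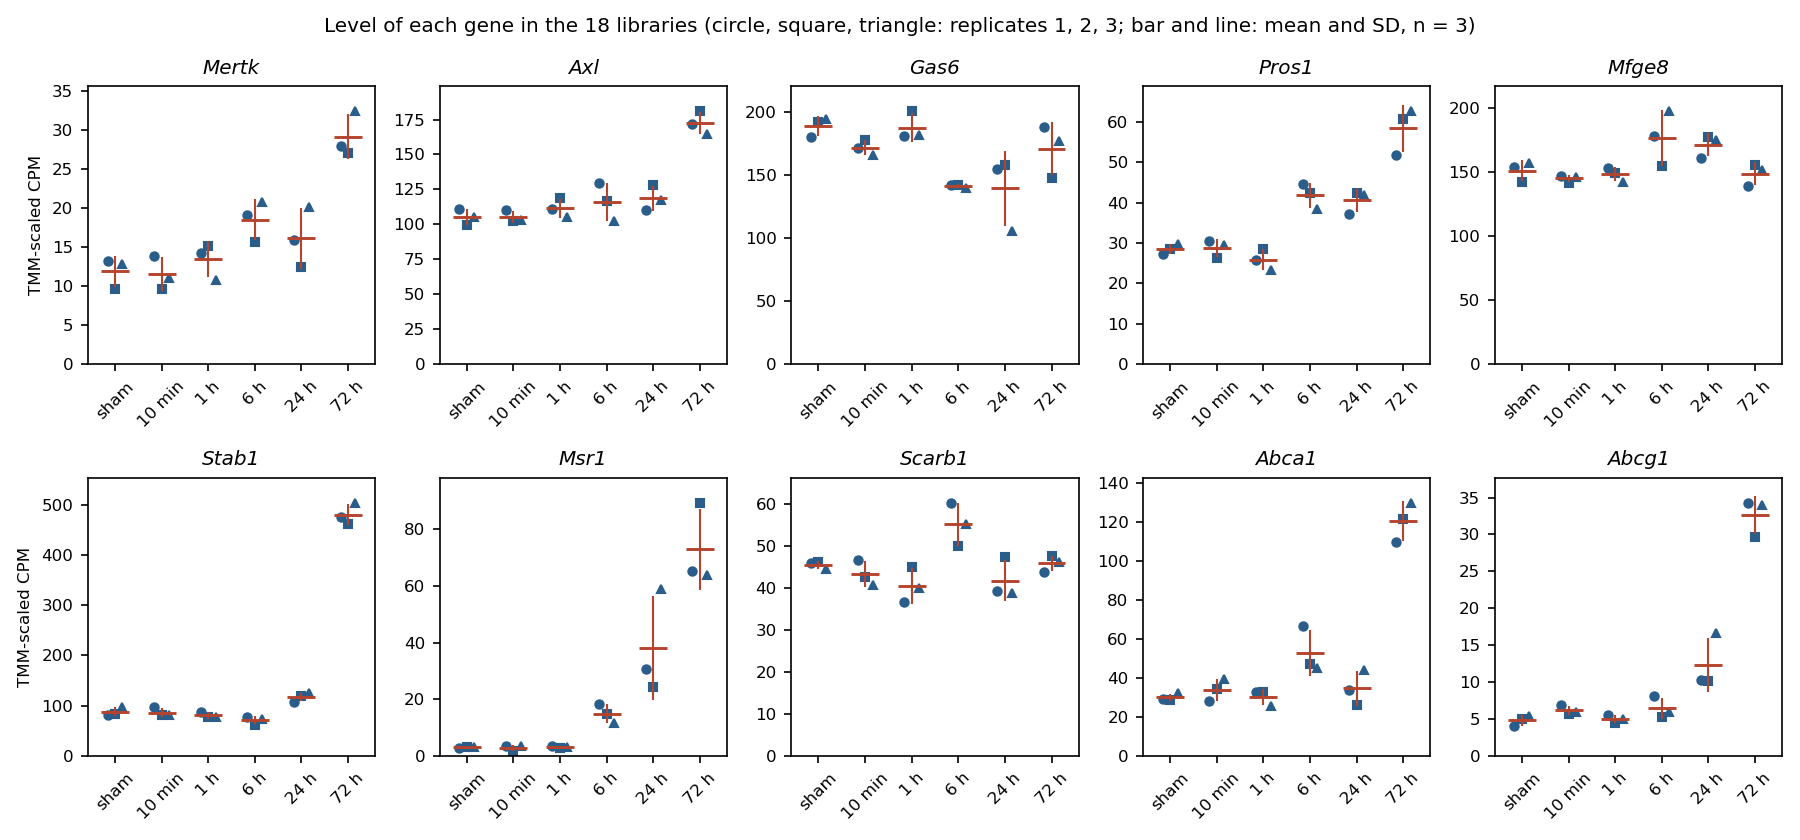
Level of each of the 10 genes, as TMM-scaled CPM on axes from 0, in the 18 libraries by group, with circles, squares and triangles for replicates 1, 2 and 3 and the mean and SD of each group in red. Stab1, Msr1, Abca1 and Abcg1 were far above sham at 72 h, Gas6 was below sham at 6 and 24 h, and Scarb1 had its highest group mean at 6 h.

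The threshold for a call was an adjusted p under 0.05 in edgeR's quasi-likelihood test, with Benjamini-Hochberg adjustment across 16311 genes. Log2 fold changes come from that fit and carry its standard errors (SE), and levels are CPM scaled by the trimmed mean of M-values (TMM), as mean ± SD of 3 mice. No gene of the 10 was called at 10 min, when 0.0736% of all tested genes were called, or at 1 h, when 0.294% were, and 0 of the 10 had an unadjusted p under 0.05 at either time, against 1144 and 899 of all genes. DESeq2 and limma also called 0 of the 10 at both times. At 6 h, 7 of the 10 were called, 5 higher and 2 lower, while 28.4% of all genes were called, 16.3% higher and 12.2% lower. At 24 h, 4 were higher and 1 was lower, while 43.8% of all genes were called, 23.7% higher and 20.2% lower. At 72 h, 7 were higher and 0 lower, while 66.4% of all genes were called, 34.2% higher and 32.2% lower. The 3 libraries did not overlap those of sham for 7 of the 10 at 6 h, 6 at 24 h and 7 at 72 h, where 44.3%, 53.7% and 75.8% of all genes did not. The median log2 fold change of the 10 against sham was 0.35 at 6 h, 0.31 at 24 h and 1.16 at 72 h, where the medians of all genes were -0.01, 0.01 and 0.03. All 10 were called in the F test over the 5 times, which called 78.4% of all genes. Without replicate 1 at 6 h, 5 of the 10 were called at that time, when the calls over all genes went from 4639 to 2926. Without sham replicate 2, 3 of the 10 were called at 6 h, and without sham replicate 3 or replicate 3 at 6 h, 4 were.

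**Figure D2:**
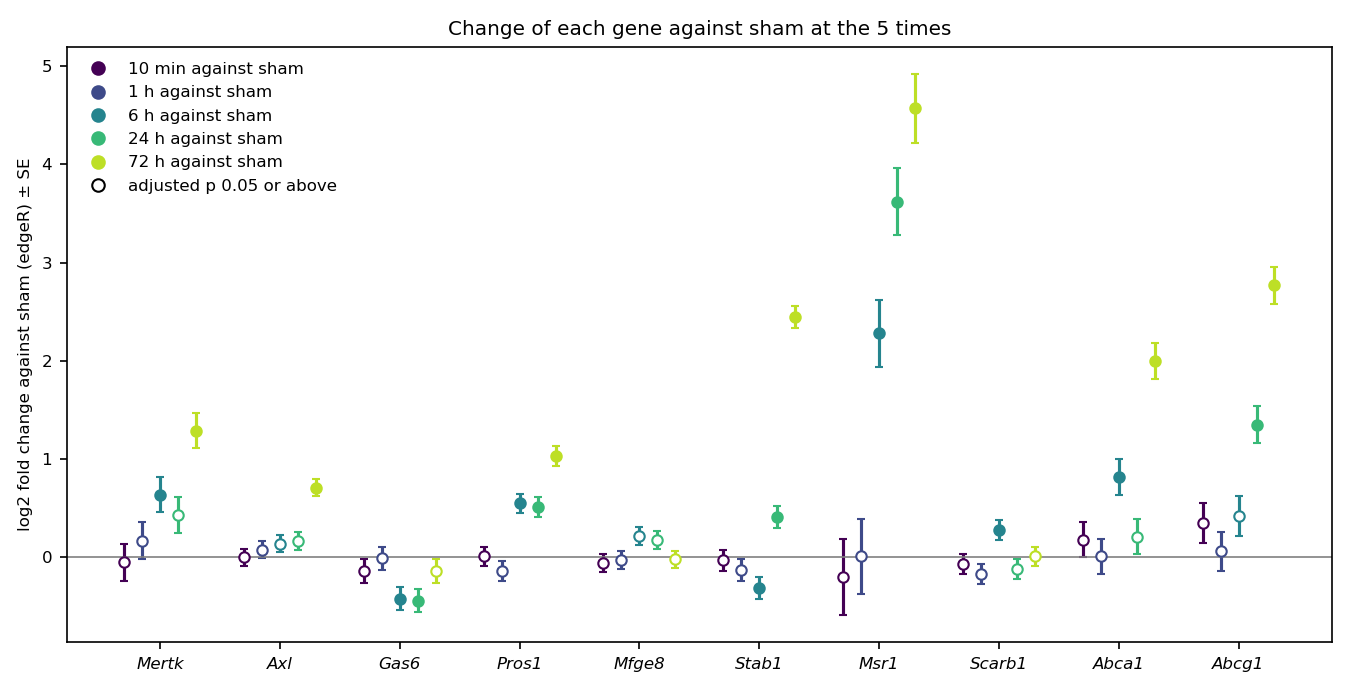
Log2 fold change against sham with its SE, from edgeR, for the 10 genes at the 5 times after ligation, with filled points for an adjusted p under 0.05. No filled point stands at 10 min or 1 h, and the highest stand at 72 h for Msr1 (4.57), Abcg1 (2.77), Stab1 (2.45) and Abca1 (2.0).

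At 10 min and 1 h the 10 genes stayed near their sham levels. Mertk had 13.9, 9.62 and 11.1 CPM at 10 min and 14.3, 15.2 and 10.8 CPM an hour after ligation. Gas6 had 171.4, 177.7 and 165.7 CPM at 10 min, all just below sham, and 180.7 to 200.4 CPM after 1 h. Pros1 had 26.4 to 30.5 CPM and then 23.4 to 28.4 CPM. The bridging protein Mfge8 lay between 141.8 and 153.3 CPM in these 6 libraries, and Stab1 between 76.3 and 96.2 CPM. Msr1 was between 1.51 and 3.38 CPM, with the lowest value in replicate 2 at 10 min. Of the lipid genes, Scarb1 had 40.6 to 46.7 CPM at 10 min and Abca1 25.4 to 39.5 CPM over both times. Abcg1 had 6.85, 5.63 and 5.92 CPM at 10 min, above all sham libraries, and 4.44 to 5.51 CPM after 1 h. Its change at 10 min was 0.35 (SE 0.20, edgeR adjusted p = 0.807) and was not called.

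Of the TAM receptors, Mertk (ENSMUSG00000014361, chr2:128698956-128802894), the main efferocytic kinase of macrophages, was low in the uninjured heart. Its CPM were 13.2, 9.65 and 12.9 in sham, 19.1, 15.7 and 20.8 at 6 h, and 28.0, 27.0 and 32.4 at 72 h. The 3 libraries at 72 h lay above all other libraries, and those at 6 h above sham. The change was 0.64 (SE 0.18, edgeR adjusted p = 0.0155) at 6 h and 1.29 (SE 0.18, adjusted p = 5.83e-06) at 72 h, which is 2.44-fold. At 24 h the values were spread from 12.4 to 20.2 CPM and overlapped sham, and the change of 0.43 was not called (adjusted p = 0.0638), although it was without replicate 2 at 24 h (adjusted p = 0.0149) and under 5 of 9 other settings, among them library-size scaling (0.62, adjusted p = 0.00813) and the replicate block (adjusted p = 0.0423). The call at 6 h was lost when replicate 1 (adjusted p = 0.0508) or replicate 3 at 6 h or sham replicate 2 was left out, with adjusted p up to 0.0793.

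Axl (ENSMUSG00000002602, chr7:25757273-25788705), the TAM receptor of stromal and inflamed tissue, was higher than Mertk per length in every group. Its CPM were 110.8, 99.5 and 105.4 in sham and 172.0, 180.9 and 164.7 at 72 h, with all libraries from 10 min to 24 h between 102.1 and 129.5. It rose 1.64-fold at 72 h (log2 0.71, SE 0.09, edgeR adjusted p = 2.07e-06) and was called at no earlier time, but with library-size scaling it was also called at 24 h (0.37, adjusted p = 0.00629). At 6 h its change was 0.14, and 0.06 without replicate 1, neither of them called. Per length, sham hearts had 7.68 times as much Axl as Mertk, against 5.40 times at 6 h, 6.44 times at 24 h and 5.12 times at 72 h. The ratios at 6 and 72 h did not overlap those of sham and those at 24 h did (exact permutation p = 0.5), but an exact permutation test of 3 against 3, two-sided, cannot go below p = 0.1.

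Tyro3, the remaining TAM receptor, is not one of the 10 and was looked at after its values were seen. It stood at 2.72 ± 0.245 CPM in sham and 12.9 ± 1.17 CPM at 72 h, and it rose by 0.66 (SE 0.18, edgeR adjusted p = 0.00784) at 24 h and 2.24 (SE 0.18, adjusted p = 6.05e-09) at 72 h. Adam17, a protease that sheds Mertk from the cell surface and was likewise looked at after the fact, was 39.4 ± 4.44 CPM in sham and 79.8 ± 4.62 CPM at 72 h, and it was called at 72 h alone among the 5 times (log2 1.02, SE 0.12, adjusted p = 9.63e-07).

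The 2 ligands of the TAM receptors moved apart at 6 h. Gas6 (ENSMUSG00000031451, chr8:13465374-13494490), which activates all 3 receptors, was the most abundant of the 10 genes per length in every group. Its CPM were 180.0, 191.8 and 194.3 in sham, 142.1, 142.2 and 139.7 at 6 h, 154.9, 158.2 and 105.2 at 24 h, and 187.6, 147.5 and 177.2 at 72 h. All libraries at 6 and 24 h were below all sham libraries, and those at 72 h overlapped sham. Gas6 fell by 0.42 on the log2 scale at 6 h (SE 0.12, edgeR adjusted p = 0.0173) and by 0.44 at 24 h (SE 0.12, adjusted p = 0.00836). At 72 h its change of -0.14 was not called (adjusted p = 0.314), and with scaling to library size alone it had the other sign, 0.44, and was called.

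The call of Gas6 at 6 h was lost without sham replicate 2 or 3 (adjusted p up to 0.0579). The call at 24 h was lost under 4 of 9 other settings. These were library-size scaling (adjusted p = 0.14), both limma fits on FPKM and only the 6 libraries compared. Without replicate 1 at 6 h the change at 6 h was -0.42 (adjusted p = 0.0499). Gas6 overlaps Tmem255b on the opposite strand, over 3100 bases, and that gene had at most 268 counts in any library against at least 2041 for Gas6. Whether the counting used strand is not given in the sources used here.

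Pros1 (ENSMUSG00000022912, chr16:62854307-62929346), which encodes protein S, a ligand of Mertk and a plasma anticoagulant, rose. Its CPM were 27.3, 28.4 and 29.8 in sham, 44.7, 42.3 and 38.5 at 6 h, 37.3, 42.4 and 42.0 at 24 h, and 51.8, 60.7 and 62.6 at 72 h. Each of these later groups lay above sham without overlap, and 72 h lay above 24 h. The rise was 1.47-fold at 6 h (log2 0.55, SE 0.10, edgeR adjusted p = 0.00058), 1.42-fold at 24 h and 2.05-fold at 72 h (log2 1.03, SE 0.10, adjusted p = 4.82e-08). It was called at these 3 times whichever single library was left out, and without replicate 1 at 6 h the 6 h value was 0.50 (adjusted p = 0.00407).

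The ratio of Gas6 to Pros1 per length was 10.5 to 10.8 in the sham libraries, 9.01 to 10.8 at 10 min and 11.2 to 12.5 at 1 h. It was 5.10, 5.39 and 5.83 at 6 h, 6.67, 5.98 and 4.02 at 24 h, and 5.81, 3.90 and 4.55 at 72 h. All 9 libraries of the later times were below all 9 of the earlier groups. The difference from sham in log2 ratio was -0.97 at both 6 and 24 h. The geometric mean of the library ratios was 4.69 at 72 h against 10.6 in sham. Each of these differences from sham had the smallest p that an exact permutation test of 3 against 3 can give, 0.1. The adjusted p was 0.209 over the 144 tests of 16 ratios. A ratio within a library does not depend on how the libraries were scaled.

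**Figure D3:**
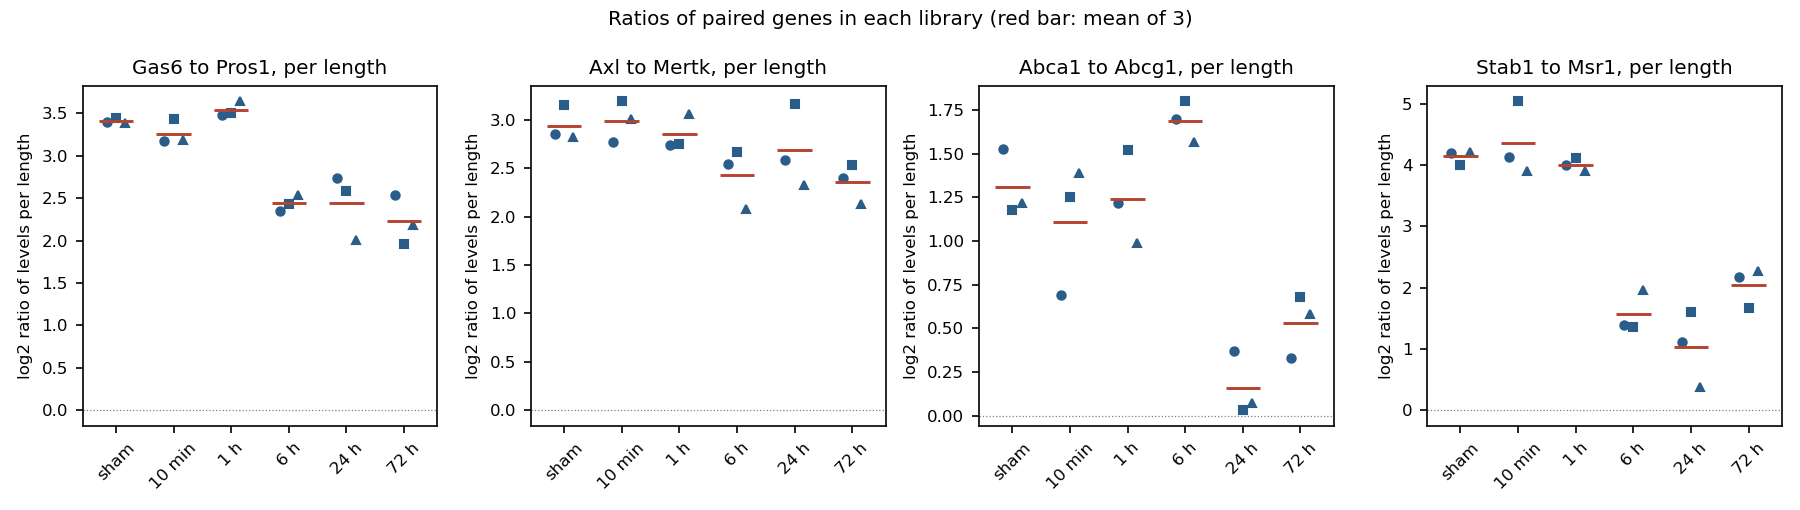
Log2 ratio of the per-length levels of 4 pairs of genes in each library, by group, with the group mean in red and the dotted line at equal levels. The ratio of Gas6 to Pros1 was lower from 6 h on, that of Abca1 to Abcg1 was highest at 6 h and, with the deposited lengths, near equal levels at 24 h, and that of Stab1 to Msr1 was lowest at 24 h. The height of the Abca1 to Abcg1 ratio depends on the Abcg1 length taken, here 4066 bases where the annotation's exons sum to 7298.

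Mfge8 (ENSMUSG00000030605, chr7:79133768-79149060), the bridge to integrins, was called against sham at none of the 5 times in the edgeR fit with TMM scaling. Its CPM were 154.2, 142.1 and 157.4 in sham, 178.0, 154.4 and 197.5 at 6 h, 161.0, 177.6 and 175.1 at 24 h, and 139.0, 155.9 and 151.5 at 72 h. The 24 h libraries lay just above those of sham, and the 6 h and 72 h libraries overlapped them. The log2 changes were 0.22 (SE 0.09, 95% interval 0.05 to 0.40, edgeR adjusted p = 0.0724) at 6 h, 0.18 (adjusted p = 0.118) at 24 h and -0.02 (95% interval -0.20 to 0.15) at 72 h. The 6 h change was 0.22 without replicate 1 of that group (adjusted p = 0.161), and it was called without replicate 2 at 6 h (0.31, adjusted p = 0.0167) and by DESeq2 (adjusted p = 0.0399). With library-size scaling the value at 24 h was 0.38 (adjusted p = 0.00708) and that at 72 h turned to 0.56, and both were called. Both limma fits on FPKM also called it at 24 h. Over all 5 times Mfge8 passed the F test (adjusted p = 0.0261), a call that was lost without replicate 1 or 3 at 6 h or replicate 2 at 24 h (adjusted p up to 0.073), or with no filter on low counts (adjusted p = 0.102).

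Among the scavenger receptors, Msr1 (ENSMUSG00000025044, chr8:39581685-39642673), the class A macrophage receptor for modified lipoproteins, had the largest fold change of the 10. Its CPM were 2.73, 3.22 and 3.24 in sham, 18.2, 14.9 and 11.6 at 6 h, 30.8, 24.2 and 58.9 at 24 h, and 65.3, 89.4 and 64.0 at 72 h. The groups stood in this order with no overlap, although the 24 h value rests on a wide spread in which replicate 3 is highest. Msr1 rose 4.84-fold at 6 h (log2 2.28, SE 0.34, edgeR adjusted p = 0.00024), 12.3-fold at 24 h (log2 3.62, SE 0.34, adjusted p = 2.75e-06) and 23.7-fold at 72 h (log2 4.57, SE 0.35, adjusted p = 2.05e-08). Without replicate 1 at 6 h the change at 6 h was 2.11 (adjusted p = 0.00132). The rise from 24 to 72 h (0.95, SE 0.28, adjusted p = 0.011) was lost without replicate 1 at 24 h or replicate 2 at 72 h, with adjusted p up to 0.0588. Its counts were as low as 36 in a library, and its SE was the widest of the 10.

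Stab1 (ENSMUSG00000042286, chr14:31139013-31168641), a receptor of sinusoidal endothelium and of tissue macrophages, first fell and then rose. Its CPM were 81.6, 84.1 and 97.9 in sham, 77.4, 62.2 and 73.9 at 6 h, 107.6, 118.4 and 124.4 at 24 h, and 475.8, 462.1 and 504.4 at 72 h. The 6 h libraries lay below sham, the 24 h libraries above it, and the 72 h libraries far above all others. The fall at 6 h was small (log2 -0.31, SE 0.11, edgeR adjusted p = 0.0403) and was lost without sham replicate 2 or 3 or without replicate 2 or 3 at 6 h, with adjusted p up to 0.191. The call was also lost with no filter on low counts and with only the 6 libraries compared. Without replicate 1 at 6 h the change was -0.37 (adjusted p = 0.039). The rises at 24 h (0.41, SE 0.11, adjusted p = 0.00473) and at 72 h (2.45, SE 0.11, adjusted p = 6.02e-12, 5.47-fold) were called whichever library was left out, as was the difference of 24 h from 6 h (0.72, SE 0.11, adjusted p = 0.000161). Stab1 overlaps Nt5dc2 on the opposite strand over 112 bases. Nt5dc2 had 419 to 459 counts in sham, 354 to 440 at 6 h and 1204 to 1344 at 72 h, where Stab1 had 1614 to 2205, 1298 to 1388 and 15083 to 15850.

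Scarb1 (ENSMUSG00000037936, chr5:125277087-125341094), the high-density lipoprotein receptor SR-BI, had a small peak at 6 h. Its CPM were 45.9, 46.1 and 44.4 in sham, 36.6, 45.1 and 39.9 at 1 h, 60.3, 50.0 and 55.3 at 6 h, 39.2, 47.4 and 38.7 at 24 h, and 43.8, 47.5 and 46.2 at 72 h. The 6 h libraries lay above those of every other group. Scarb1 was higher at 6 h than at 1 h (0.45, SE 0.10, edgeR adjusted p = 0.00384) and lower at 24 h than at 6 h (-0.40, SE 0.10, adjusted p = 0.00642), and both calls held whichever library was left out, including the one with atrial transcripts (0.38 and -0.33). With library-size scaling the difference of 24 h from 6 h was -0.09 and not called (adjusted p = 0.547). Against sham the rise at 6 h was 0.28 (SE 0.10, adjusted p = 0.0441) and was not called without that library (0.21, adjusted p = 0.193), nor in 4 of the 5 other fits with 1 library left out. The 6 h call was also lost under 5 of 9 other settings. These were library-size scaling, no filter on low counts, both limma fits on FPKM and only the 6 libraries compared. At 72 h the change was 0.01, and with library-size scaling it was 0.60 and called (edgeR adjusted p = 6.67e-05).

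The 2 cholesterol exporters followed different courses. Abca1 (ENSMUSG00000015243, chr4:53030787-53159895), which loads cholesterol onto lipid-poor apolipoprotein A-I, had CPM of 29.3, 28.7 and 32.0 in sham, 66.6, 47.0 and 45.2 at 6 h, 33.8, 26.2 and 44.1 at 24 h, and 109.6, 121.7 and 130.0 at 72 h. The 6 h and 72 h libraries lay above sham and those of 24 h overlapped it. The change was 0.82 (SE 0.18, edgeR adjusted p = 0.00278) at 6 h, 0.21 (95% interval -0.14 to 0.56, adjusted p = 0.367) at 24 h and 2.0 (SE 0.18, adjusted p = 3.97e-08) at 72 h, which is 4.01-fold. The rise at 6 h held without the library with atrial transcripts (0.62, adjusted p = 0.0197). The fall from 6 to 24 h (-0.61, SE 0.18, adjusted p = 0.0166) did not hold without it (-0.41, adjusted p = 0.0923), nor without replicate 1 or 2 at 24 h, nor with library-size scaling (-0.31, adjusted p = 0.178).

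Abcg1 (ENSMUSG00000024030, chr17:31057675-31117988), which exports cholesterol to mature high-density lipoprotein, rose later and step by step. Its CPM were 3.99, 4.98 and 5.37 in sham, 8.05, 5.31 and 5.97 at 6 h, 10.3, 10.1 and 16.6 at 24 h, and 34.3, 29.7 and 34.0 at 72 h. The 6 h libraries overlapped sham, and the 24 h and 72 h libraries lay above all earlier ones. The change was 0.42 (SE 0.20, edgeR adjusted p = 0.12; 0.23 without replicate 1) at 6 h, 1.35 (SE 0.19, adjusted p = 3.55e-05) at 24 h and 2.77 (SE 0.19, adjusted p = 1.02e-09) at 72 h, or 6.82-fold. Both later calls held whichever library was left out.

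Per length, the ratio of Abca1 to Abcg1 was 2.88, 2.26 and 2.33 in sham, 3.25, 3.47 and 2.97 at 6 h, 1.29, 1.02 and 1.05 at 24 h, and 1.26, 1.6 and 1.5 at 72 h. The 6 h libraries were above and the 24 h and 72 h libraries below all sham libraries. The log2 ratio differed by -1.53 between 24 h and 6 h (exact permutation p = 0.1, two-sided, the smallest possible; adjusted p = 0.209). The deposited values use a length of 4066 bases for Abcg1, where the annotation's exons sum to 7298, so the height of this ratio depends on the length taken and its change over time does not.

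Ordered by level per length, the 10 genes kept nearly the same order from sham to 1 h. In sham Gas6 stood at 74.1 ± 3.00 FPKM (here TMM-scaled CPM per kilobase of the deposited gene length), followed by Mfge8 at 32.2 ± 1.72, Axl at 20.9 ± 1.12, Stab1 at 8.54 ± 0.856 and Pros1 at 6.97 ± 0.307. Below them came Scarb1 at 5.35 ± 0.11, Abca1 at 2.89 ± 0.169, Mertk at 2.75 ± 0.453 and Msr1 at 0.483 ± 0.0455 FPKM, with Abcg1 between the last pair at 0.982 to 1.32 FPKM. Only Abca1 and Mertk overlapped among neighbours in sham. At 6 h Pros1 (10.2 ± 0.771 FPKM) stood above Stab1 (6.92 ± 0.775 FPKM), and from 6 to 24 h the genes below Pros1 overlapped with a neighbour in most places.

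At 72 h Stab1 (46.7 ± 2.1 FPKM) was second to Gas6 (67.0 ± 8.16 FPKM). Axl (34.3 ± 1.61 FPKM) and Mfge8 (31.7 ± 1.87 FPKM) overlapped, as did Abca1 (11.6 ± 0.988 FPKM) and Msr1 (11.5 ± 2.26 FPKM), and Abcg1 (8.04 ± 0.626 FPKM) and Mertk (6.72 ± 0.658 FPKM). Scarb1 (5.39 ± 0.217 FPKM), sixth in sham, was the lowest of the 10 at the deposited lengths. Msr1, the lowest in sham, was thus level with Abca1 at 72 h. The places and overlaps of Abcg1 in these orders depend on its length, deposited as 4066 bases where the annotation's exons sum to 7298. With the longer length Abcg1 would stand below Scarb1 at 72 h.

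Between consecutive times, 0 of the 10 genes were called from 10 min to 1 h, when 0.307% of all genes were. From 1 to 6 h, 4 were higher and 1 lower, when 24.5% of all genes were called, 14.5% higher and 10.0% lower. Pros1 (0.69, SE 0.10), Msr1 (2.26, SE 0.34), Scarb1 and Abca1 (0.81, SE 0.18) rose, and Gas6 fell by 0.41 (SE 0.12, edgeR adjusted p = 0.0224). Without the library with atrial transcripts the fall of Gas6 was not called (adjusted p = 0.0602). The rises of Pros1 (0.64), Msr1 (2.1), Scarb1 (0.38) and Abca1 (0.61) were still called without it. From 6 to 24 h, 3 were higher (Stab1, Msr1 and Abcg1) and 2 lower (Scarb1 and Abca1), when 27.8% of all genes were called, 14.2% higher and 13.7% lower. Without the library with atrial transcripts the rises of Stab1 (0.78), Msr1 (1.51) and Abcg1 (1.12) were still called. Of the falls, that of Scarb1 was and that of Abca1 was not. With only the 6 libraries of these groups fitted, 1 of the 10 was called, and with library-size scaling both falls were lost, while the share of calls over all genes that were higher went from 50.9% to 88.0%. From 24 to 72 h, 7 were higher and 0 lower, when 50.5% were called, 24.4% higher and 26.1% lower. The largest rises were Stab1 (2.04, SE 0.11), Abca1 (1.80, SE 0.18) and Abcg1 (1.42, SE 0.18). Gas6 just missed the threshold in that interval (0.29, SE 0.12, adjusted p = 0.0566), and it passed under 7 of 9 other settings (log2 change up to 0.70) and in 3 of 6 fits with a library left out.

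The rises at 24 and 72 h went with higher markers of macrophages. The summed CPM of 10 macrophage markers was 226.2 to 256.1 in sham, 236.4 to 548.0 at 6 h, 633.9 to 1079.7 at 24 h and 3890.0 to 4934.0 at 72 h, and all 10 were called higher at 24 h and at 72 h. At 6 h, 6 of them were higher and 1 (Adgre1, -0.47, edgeR adjusted p = 0.047) was lower, and without replicate 1 at 6 h these numbers were 5 and 2. The 7 neutrophil markers, of which 7, 6 and 5 were called higher at 6, 24 and 72 h, summed to 2.31 to 3.63 CPM in sham, with Ly6g at 0, and to 103.1 to 760.5 CPM at 6 h, 36.1 to 664.2 CPM at 24 h and 51.4 to 61.5 CPM at 72 h. At 72 h all 8 fibroblast markers were called higher, and their sum was 6982.6 to 9158.3 CPM against 838.3 to 916.9 CPM in sham. Of the 8 endothelial markers 6 were lower and 1 was higher, with sums of 838.1 to 1065.7 CPM against 1337.4 to 1468.3 CPM. All 9 cardiomyocyte markers were lower at 72 h, with sums of 16211 to 21818 CPM against 63658 to 69348 CPM. The part of these cells in the changes of the 10 genes was not tested.

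Each gene was also set against the summed macrophage markers of its own library. The log2 ratio of Msr1 to the markers was higher than in sham by 1.68 at 6 h and 1.83 at 24 h, with no overlap, and by 0.39 at 72 h, with overlap. Every one of the other 9 genes was lower against the markers at 72 h than in sham in all 3 libraries. The difference was -1.39 for Abcg1, -1.72 for Stab1, -2.17 for Abca1, -2.87 for Mertk, -3.14 for Pros1 and -3.46 for Axl, and -4.32 for Gas6, -4.20 for Mfge8 and -4.16 for Scarb1. Each of these had an exact permutation p of 0.1, the smallest possible with 3 against 3, except Msr1 at 72 h (p = 0.2). Mertk was thus higher in the tissue at 72 h while its ratio to the markers was lower, as that ratio was at 24 h (-1.27). The sum is weighted towards its most abundant markers. Lyz2 alone had a mean of 129.5 CPM in sham, where the mean sum was 238.4, and of 2369.2 CPM at 72 h, where it was 4318.1. Any gene that rose less than this sum has a lower ratio, so the ratio is not a level per macrophage.

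**Figure D4:**
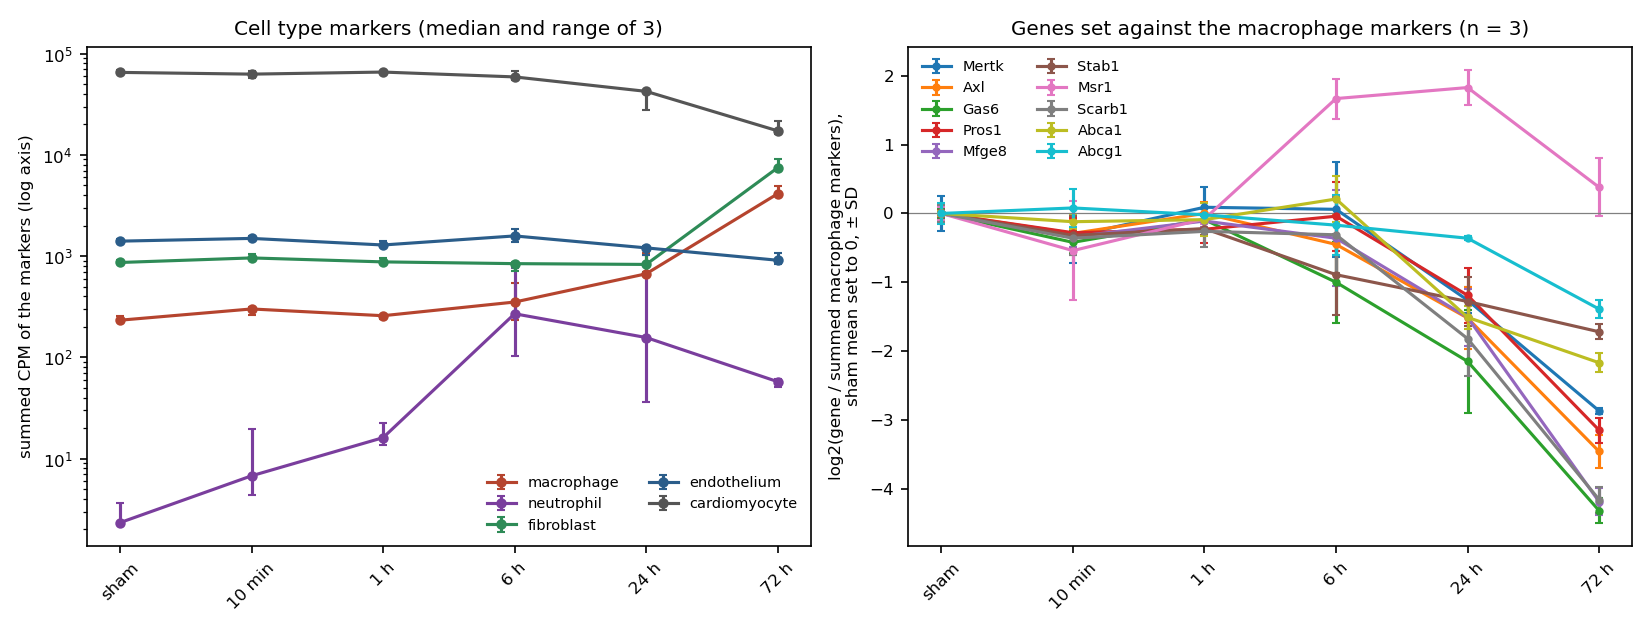
Left, summed CPM of the markers of 5 cell types on a log axis, as median and range of 3 libraries; right, log2 ratio of each of the 10 genes to the summed macrophage markers, with the mean of sham set to 0, as mean and SD of 3. Macrophage markers climbed from 226.2 to 256.1 CPM in sham to 3890.0 to 4934.0 CPM at 72 h, and only Msr1 had a mean above its sham ratio at 24 and 72 h.

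Within the 24 h group, replicate 3 had the highest macrophage (1079.7 CPM) and neutrophil (664.2 CPM) markers and the lowest cardiomyocyte markers (27923 CPM). It also had the highest Msr1 (58.9 CPM), Abcg1 (16.6 CPM), Abca1 (44.1 CPM), Mertk (20.2 CPM) and Stab1 (124.4 CPM) of its group and the lowest Gas6 (105.2 CPM). At 6 h, replicate 1, which held the atrial transcripts, also had the highest macrophage (548.0 CPM) and neutrophil (760.5 CPM) markers of its group. It had the highest Msr1, Abca1, Abcg1, Axl (129.5 CPM), Pros1 (44.7 CPM), Stab1 (77.4 CPM) and Scarb1 (60.3 CPM) of its group. Its Gas6 (142.1 CPM) was like that of the others. Mertk (20.8 CPM) and Mfge8 (197.5 CPM) were instead highest in replicate 3 at 6 h, where the macrophage markers were lowest (236.4 CPM).

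Over the 18 libraries, the log2 CPM of Stab1 and Abcg1 had a Pearson r of 0.94, Pros1 and Msr1 one of 0.93, and Abca1 and Abcg1 one of 0.84. Gas6 had its lowest r with Mfge8 (-0.68) and Msr1 (-0.56). After the mean of each group was subtracted, r was 0.74 for Stab1 and Abcg1, 0.42 for Pros1 and Msr1, and -0.71 for Gas6 and Msr1. These values are descriptions, since the libraries share the groups and their cell composition.

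The genes most like each of the 10, by Pearson r of log2 CPM over the 18 libraries among 11681 named genes whose mean count was 50 or more, differed between them. Stab1 was nearest to Bgn (0.991), a matrix proteoglycan, and to Grn (0.990), the lysosomal protein progranulin. Abcg1 was nearest to Myo1f (0.990) and Laptm5 (0.988), both known from leukocytes, and Msr1 to Slc39a6 (0.987), Clic1 (0.985) and Pirb (0.985). Abca1 was nearest to Ctsl (0.971), a lysosomal protease, and Axl to Sulf1 (0.965), a heparan sulphate sulphatase. Mertk was nearest to Ifi207 (0.951), an interferon-inducible gene with close paralogs, Pros1 to Car13 (0.969) and Gas6 to Ackr4 (0.952), a scavenging chemokine receptor. Mfge8 (Morc2a, 0.902) and Scarb1 (Pde9a, 0.805) had less close neighbours.

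Other receptors and bridges of apoptotic cells were read from a list of 23 genes, of which 21 were tested. At 6, 24 and 72 h 28.4%, 43.8% and 66.4% of all genes were called, and 16.3%, 23.7% and 34.2% were called higher, and the counts of this and the next lists stand beside those shares. In this list 10 were higher and 2 lower at 6 h, 14 higher and 3 lower at 24 h, and 18 higher and 2 lower at 72 h, with 0 called at 10 min and 1 h. Their median log2 change was 0.29, 0.61 and 2.93 at the 3 later times. The complement subunits C1qa (74.7 ± 5.94 CPM in sham, 539.2 ± 77.9 CPM at 72 h), C1qb and C1qc, which coat dying cells, rose by 2.85 (SE 0.14), 3.38 (SE 0.15) and 2.93 (SE 0.14) at 72 h, and annexin A1 (Anxa1) by 0.47 (SE 0.12; 0.47 without replicate 1, adjusted p = 0.0245) at 6 h, 1.08 (SE 0.12) at 24 h and 2.97 (SE 0.13) at 72 h, all with edgeR adjusted p of at most 0.00828 over all libraries. Timd4, the phosphatidylserine receptor Tim-4 of resident macrophages, was the reverse, and was picked after its values were seen. It fell by 1.61 (SE 0.42, adjusted p = 0.00794; adjusted p = 0.0368 without replicate 1) at 6 h, 1.11 (SE 0.39, adjusted p = 0.0277) at 24 h and 1.23 (SE 0.38, adjusted p = 0.00811) at 72 h, from 1.78 ± 0.164 CPM in sham to 0.753 ± 0.335 CPM at 72 h. Cd36, also picked after the fact, rose by 0.61 at 6 h (adjusted p = 0.00642; 0.0135 without replicate 1) and fell by 1.23 at 72 h (adjusted p = 1.33e-06); cardiomyocytes and endothelium use it to take up fatty acids.

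Of 20 genes of the engulfment machinery, 6 were higher and 2 lower at 6 h, 9 higher and 1 lower at 24 h, and 14 higher and 2 lower at 72 h (median 0.01, 0.15 and 0.48). Dock2 and Vav1, regulators of Rac in blood cells, rose by 4.0 (SE 0.34, edgeR adjusted p = 5.21e-08) and 4.31 (SE 0.38, adjusted p = 1.08e-07) at 72 h, Cybb, the phagocyte oxidase, by 3.47 (SE 0.19), and Dnase2a, the lysosomal nuclease, by 2.24 (SE 0.17). Of 17 genes of find-me signals, do-not-eat-me signals and receptor shedding, 9 were higher and 1 lower at 6 h, the same counts at 24 h, and 13 higher and 3 lower at 72 h (median 0.64, 0.35 and 0.99). Cx3cr1, the fractalkine receptor, was 6.64 ± 1.19 CPM in sham, 1.20 ± 0.17 CPM at 6 h and 52.5 ± 4.71 CPM at 72 h, a fall by 2.46 (SE 0.33, adjusted p = 7.06e-05; 0.000627 without replicate 1 at 6 h) and then a rise by 2.98 (SE 0.27, adjusted p = 4.79e-08) against sham. Panx1, a channel for nucleotide find-me signals, rose by 3.50 (SE 0.28) at 72 h and Sirpa, the receptor of the do-not-eat-me signal CD47, by 2.86 (SE 0.14).

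Of 20 other scavenger receptors, 8 were higher and 1 lower at 6 h, 8 higher and 4 lower at 24 h, and 13 higher and 3 lower at 72 h (median 0.22, 0.26 and 1.58). Cd68, itself one of the macrophage markers, rose by 4.78 (SE 0.20), Cxcl16 by 3.01 (SE 0.13), Scara3 by 2.54 (SE 0.20) and the mannose receptor Mrc1 by 2.45 (SE 0.16) at 72 h, each with an edgeR adjusted p of at most 5.34e-09. Without replicate 1 at 6 h, the genes higher and lower at 6 h numbered 8 and 2 for receptors and bridges, 3 and 2 for engulfment, 8 and 1 for find-me signals, 5 and 1 for other scavengers, 5 and 2 for LXR targets and sterol genes, and 1 and 1 for cholesterol synthesis.

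Abca1 and Abcg1 are targets of LXR, and the other LXR targets and sterol genes did not move one way. Of 23 tested genes of 25, 15 were called at 72 h, a share near the 66.4% of all genes. In each direction 7 were higher and 2 lower at 6 h, 7 higher and 6 lower at 24 h, and 9 higher and 6 lower at 72 h, with medians of 0.15, -0.02 and -0.03. Apoe, which encodes apolipoprotein E, stood at 527.3 ± 16.5 CPM in sham, 377.3 ± 22.9 CPM at 24 h and 4690.0 ± 1186.6 CPM at 72 h. Against sham this was a fall by 0.48 (SE 0.15, edgeR adjusted p = 0.0137) and then a rise by 3.15 (SE 0.16, adjusted p = 1.99e-11). Soat1, which esterifies cholesterol, rose by 1.92 (SE 0.25) at 24 h and 3.82 (SE 0.26) at 72 h, while its call at 6 h (0.76, adjusted p = 0.0384) was lost without replicate 1 (0.52, adjusted p = 0.204), and Lipa, the lysosomal acid lipase, rose by 2.38 (SE 0.10) at 72 h. Npc2, which moves cholesterol out of lysosomes, stood at 68.5 ± 2.09 CPM in sham and 266.9 ± 26.7 CPM at 72 h (adjusted p = 5.43e-12).

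Further genes of the LXR list were picked after their values were seen, so their courses are a description. Srebf1 and Mylip rose at 6 h (0.77 and 0.79, SE 0.12, edgeR adjusted p = 0.000215 and 9.46e-05) and fell from 6 to 24 h (by 0.42 and by 1.04, adjusted p = 0.0152 and 1.21e-05), and all 4 calls held without replicate 1 at 6 h. These falls are relative to TMM scaling and were not recomputed with library-size scaling, which moved the median of all genes in that comparison from 0.02 to 0.33. At 72 h, when Abca1 was higher, neither was called (adjusted p = 0.167 and 0.0733). Arl4c was not called at 6 h (0.41, adjusted p = 0.142; 0.19 without replicate 1) and rose by 1.31 (SE 0.20) at 24 h and 2.82 (SE 0.20) at 72 h, from 9.94 ± 0.304 CPM in sham to 70.5 ± 7.67 CPM. The receptors themselves, also picked after their values were seen, Nr1h2 (61.4 ± 0.219 CPM in sham, 52.7 ± 5.21 CPM at 72 h) and Nr1h3 (16.4 ± 0.789 CPM and 16.0 ± 1.71 CPM), were not called against sham at any of the 5 times.

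Of 18 tested genes of cholesterol synthesis, 3 were higher and 2 lower at 6 h, 6 higher and 1 lower at 24 h, and 10 higher and 2 lower at 72 h (median -0.09, 0.22 and 0.51). The 12 called at 72 h and 5 at 6 h stand beside 66.4% and 28.4% of all genes, shares near those of the list. Sqle, squalene epoxidase, and Cyp51, a sterol demethylase, rose at 72 h by 2.01 (SE 0.29, edgeR adjusted p = 6.06e-06) and 1.19 (SE 0.13, adjusted p = 2.54e-07). Fdft1, squalene synthase, fell by 1.11 (SE 0.13) at 24 h and 1.60 (SE 0.13, adjusted p = 6.1e-09) at 72 h.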

How the data were processed

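RNA from 18 mouse hearts was read as deposited counts per Ensembl gene, whole numbers that the authors made, per the submitters' processing notes, with cutadapt 1.18, HISAT2 2.1.0 and featureCounts on mm10. The annotation and the use of strand are not given in the sources used here. The authors also deposited FPKM, which are the same counts per length and library total: for 10452 well counted genes 100% of the lengths came out whole to within 0.001 bases. At 6 h the deposited FPKM of replicates 2 and 3 matched each other's counts, so levels per length were computed from the counts. Symbols and positions come from GENCODE M21 on GRCm38, matched for 30512 of 30583 identifiers, and promoters from RefSeq (GRCm38.p6). Per the labels' protocols libraries were made from poly(A) RNA, and each mouse gave 1 library. Molecular identifiers are not mentioned there, so reads need not be independent molecules.

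The main test was edgeR 4.0.16 under R 4.3.3. A filter (filterByExpr) removed 14272 genes and left 16311. Libraries were scaled by TMM, with factors from 0.825 to 1.43, and the robust quasi-likelihood fit gave each group its own mean and used all 18 libraries (biological coefficient of variation 0.149). Contrasts were two-sided, with Benjamini-Hochberg adjustment over all genes tested, and intervals are 1.96 SE on either side. Contrasts were each time against sham, and against the preceding time. Ratios were compared by exact permutation. Gene likeness used log2 CPM with a prior count of 2. Alternatives were other scalings and filters, limma 3.58.1 on log2(FPKM + 1) and log2(FPKM + 0.1), DESeq2 1.42.0, only the 6 libraries compared, a replicate block, and each library left out. Scaling to library size moved the median of all genes at 72 h from 0.03 to 0.61 on the log2 scale, and the share of calls that were higher from 51.4% to 79.9% (at 24 h from 54.0% to 75.5%, at 6 h from 57.2% to 40.6%, at 10 min from 41.7% to 77.8%). Between consecutive times that share moved from 59.2% to 45.7% for 6 h against 1 h, from 50.9% to 88.0% for 24 h against 6 h and from 48.4% to 81.5% for 72 h against 24 h.

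The 10 genes and the gene lists were chosen with earlier results of these data known. All 10 genes are named; from each other list up to 4 genes with the smallest adjusted p in the F test are named; for each of the 10, up to 3 most correlated genes are named. One gene that the rule names is not reported here. Genes outside this rule were picked after their values were seen. Besides those in the report, at 72 h the genes called higher and lower numbered 4 and 2 of 7 tested resident macrophage markers, 4 and 0 of 5 T, B and NK cell markers, 1 and 2 of 5 lymphatic endothelial, 2 and 5 of 8 pericyte and smooth muscle, 1 and 0 of 3 atrial, 0 and 5 of 5 red blood cell and 3 and 0 of 5 mesothelial markers, and 0 of 1 adipocyte marker.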

Additional observations from a re-analysis of the deposited data

Results flagged for a closer look

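Stab1 went in opposite directions at 2 times under the same contrast with sham: all 3 libraries at 6 h were below sham (62.2 to 77.4 CPM against 81.6 to 97.9 CPM) and all 3 at 24 h above it (107.6 to 124.4 CPM). The difference of 24 h from 6 h, tested by edgeR, was 0.72 on the log2 scale (SE 0.11, adjusted p = 0.000161). That difference does not by itself show a fall below sham. The fall at 6 h against sham (-0.31, edgeR adjusted p = 0.0403) lost its call in 4 of 6 fits with a library left out, with adjusted p up to 0.191. It also lost the call under 2 of 9 other settings, no filter on low counts and only the 6 libraries compared.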

How the results depend on the processing

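Among fold changes of the 10 genes under alternatives that left out no library, 751 kept their side of the threshold, 30 gained a call and 23 lost one. The remaining 6 reversed, which here means that they gained a call with the opposite sign. Values called in neither fit were counted as kept even where their sign changed. Gas6 at 24 h against 6 h, for example, went from -0.02 to as much as 0.29 and was not called. With 1 library left out 510 kept their side of the threshold, 8 gained a call and 22 lost one. Here too some uncalled values changed sign, such as Msr1 at 10 min against sham (-0.39 to 0.13). The 6 reversals were the changes at 72 h against sham of Gas6 (0.44 with library-size scaling, 0.43 and 0.44 with limma on log2(FPKM + 1) and log2(FPKM + 0.1)) and Mfge8 (0.56, 0.55 and 0.56); the deposited FPKM are also scaled to library totals. The number of the 10 genes called with each library left out ran from 3 to 7 at 6 h (3 without sham replicate 2, 4 without sham replicate 3 or replicate 3 at 6 h), from 5 to 6 at 24 h, from 7 to 7 at 72 h, from 4 to 7 for 6 h against 1 h, from 4 to 5 for 24 h against 6 h, from 7 to 8 for 72 h against 24 h, from 0 to 0 at 10 min, at 1 h and for 1 h against 10 min, and from 8 to 10 over all times. With only the 6 libraries compared, 1 was called for 24 h against 6 h. The cause was not tested.

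Counts over all genes moved by more than 1.5 times as follows. At 10 min 12 became 26 with no filter, 2 and 4 with limma, 360 with only the 6 libraries, 60 with DESeq2 and 0 to 5 with 1 library left out. At 1 h 48 became 190 with only the 6 libraries, 95 with DESeq2 and 31 without sham replicate 2, and for 1 h against 10 min 50 became 244, 133 and as few as 6 without replicate 3 at 10 min. At 6 h 4639 became 2926 without replicate 1, for 6 h against 1 h 4003 became 2481 without that library and 2664 without replicate 2 at 1 h, and for 24 h against 6 h 4541 became 6880 with library-size scaling and 1024 with only the 6 libraries.

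The replicate numbers gave no clear pairing of the mice. Over 45 pairs of libraries with one number, deviations from the group means correlated at -0.256 to 0.252. Their mean was 0.0156, against -0.0075 for pairs with different numbers. Of 18 libraries, 9 were closest to their own number. With so few libraries this check cannot exclude a weak effect of the number. With the replicate block, 0, 0, 7, 6 and 7 of the 10 genes were called against sham in order of time, and Mertk at 24 h was the 1 added call. Depth limits Msr1 and Abcg1 most, with as few as 36 and 75 counts in a library.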

Other observations

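The 4 genes given here were picked after their values were seen. Of scavenger receptors that are hardly read in the uninjured heart, Olr1, the oxidised lipoprotein receptor LOX-1, stood at no more than 0.145 CPM in the libraries of sham, 10 min and 1 h, at 1.44 to 5.24 CPM at 6 h, 0.283 to 5.67 CPM at 24 h and 1.78 to 2.24 CPM at 72 h, with an edgeR adjusted p of 0.00195, 0.00201 and 0.00099 against sham at the 3 later times. The adjusted p of Olr1 at 6 h was 0.00813 without replicate 1 of that group. Marco was at 0 in all sham libraries and stood at 0.0533 to 0.574 CPM at 6 h (adjusted p = 0.0406), 0.0354 to 0.647 CPM at 24 h (adjusted p = 0.0153) and 3.47 to 6.78 CPM at 72 h (adjusted p = 4.88e-06). Marco was not called at 6 h without replicate 1 of that group (adjusted p = 0.0639). Itgb3, the integrin subunit that binds Mfge8, rose by 2.11 (SE 0.38, adjusted p = 0.000941; 1.64 without replicate 1, adjusted p = 0.00365) at 6 h, 2.45 (SE 0.38, adjusted p = 0.000156) at 24 h and 2.95 (SE 0.38, adjusted p = 5.12e-06) at 72 h, from 2.81 ± 0.304 CPM in sham to 21.9 ± 4.22 CPM at 72 h. Lpl, the lipoprotein lipase of the LXR list, fell by 0.45 (adjusted p = 0.0328) at 24 h and 1.90 (SE 0.17, adjusted p = 1.61e-08) at 72 h, from 5152.1 ± 282.9 CPM in sham.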
